A study of Mus musculus with 12 samples.

Results

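Transcription was compared between mouse epiblast-like cells (EpiLCs) and embryonic stem cells (ESCs) by sequencing RNA that had taken up 4-thiouridine (4sU) in its last minutes. Both groups came from V6.5 ESCs carrying a mCherry reporter at the miR-290 locus and a GFP reporter at the miR-302 locus, so all samples share 1 cell line and both reporters. ESCs were kept in medium with 15% serum, leukaemia inhibitory factor (LIF) and the 2i inhibitors PD0325901, which blocks MEK, and CHIR99021, which blocks GSK3. EpiLCs were the same cells 56 h after LIF and 2i had been taken away, the change being made 24 h after plating, and serum is not stated to have been removed. Each group gave 3 libraries of RNA labelled with 500 µM 4sU for 30 min, then biotinylated and caught on streptavidin, and 3 libraries of total RNA. A gene was kept where it had at least 3 CPM, read counts scaled to a common library total, in at least 3 of the 6 4sU libraries, which left 14026 of the 51467 genes counted. The third-highest value was 3.003 CPM for Slc19a3, Gm26697 and Gm11743, the kept genes nearest the limit, and 2.993 CPM for Prkg1, Gm17115 and Dnajc22, the nearest left out. The study calls its replicates biological, but the labels do not say how the 3 of a group were separated, so p-values measure the spread between these libraries.

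ESCs in LIF and 2i resemble the naive epiblast of the embryo before implantation, and EpiLCs resemble the formative epiblast just after it. LIF acts through the gp130 receptor, JAK kinases and STAT3. The MEK inhibitor silences the kinase cascade from FGF receptors to ERK, and the GSK3 inhibitor stabilizes beta-catenin, the mediator of Wnt signals. Because 4sU enters only RNA made while it is present, the captured RNA follows current synthesis more closely than the standing pool, although reads were counted over exons only.

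The 4sU libraries held 3097693 to 5385644 reads assigned to genes. Spearman's rank correlation of log2 CPM between libraries was 0.968 to 0.99 within groups and 0.843 to 0.863 between them, as a description over genes that share each library's depth. In a principal component analysis the leading axis, with 86.6% of the variance, divided ESCs from EpiLCs, and the next, with 6.12%, set ESC replicate 3 at -39.07 against 25.08 and 15.74 for the other ESC libraries. In ESC replicate 3, 320 genes (2.28%) were below 0.5 times both other ESC 4sU libraries and 267 (1.9%) were above 2 times both. Of the 320, 120 were also below 0.5 times both others in the total RNA of the same number. The low genes included 4 of 12 Wnt target genes, 4 of 18 immediate early genes, 3 of 17 ERK feedback and output genes, 3 of 20 Nodal pathway genes and 4 of 24 Wnt ligands, receptors and antagonists, so these groups are given with and without that library. Mitochondrially encoded genes took 6.94 to 8.95% of reads in ESCs and 5.48 to 5.56% in EpiLCs.

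Transcription of 3441 genes (24.5% of those tested) differed between EpiLCs and ESCs by more than 1 on the log2 scale, either way, with an adjusted p below 0.05, the rule used for every call here. By the adjusted p alone 51.8% of genes passed. Of the 3441, 1740 were higher in EpiLCs (12.4%) and 1701 were lower (12.1%). The counts of each list and family below are to be read against these shares. Values below are TMM-scaled CPM by replicate, 1 to 3, in each group, and log2 differences are EpiLC minus ESC with their standard error, 3 libraries against 3. CPM are not divided by gene length and are compared within a gene only. The median log2 difference over all genes tested was -0.02. Groups did not overlap for 8478 genes (60.4%), and 3400 of the 3441 called genes were among them. A lack of overlap is therefore common, and it is given below only to describe a gene. Large changes were common, with 200 genes over 16-fold higher and 177 over 16-fold lower. Called genes that passed the filter in ESCs alone numbered 558 lower of 601, and those that passed in EpiLCs alone 578 higher of 593, and such genes had to differ, since the filter let them in through the group where they are high. Among the 12832 genes that passed in both groups, 1162 were higher and 1143 lower (18%). Lists and families below can hold genes that passed in a single group also where their number is not given. Genes called lower took 9.65% of all reads in ESCs and 2.57% in EpiLCs, while genes called higher went from 3.5% to 11.2%. In bulk RNA, fewer cells transcribing a gene and less transcription per cell cannot be told apart.

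**Figure D1:**
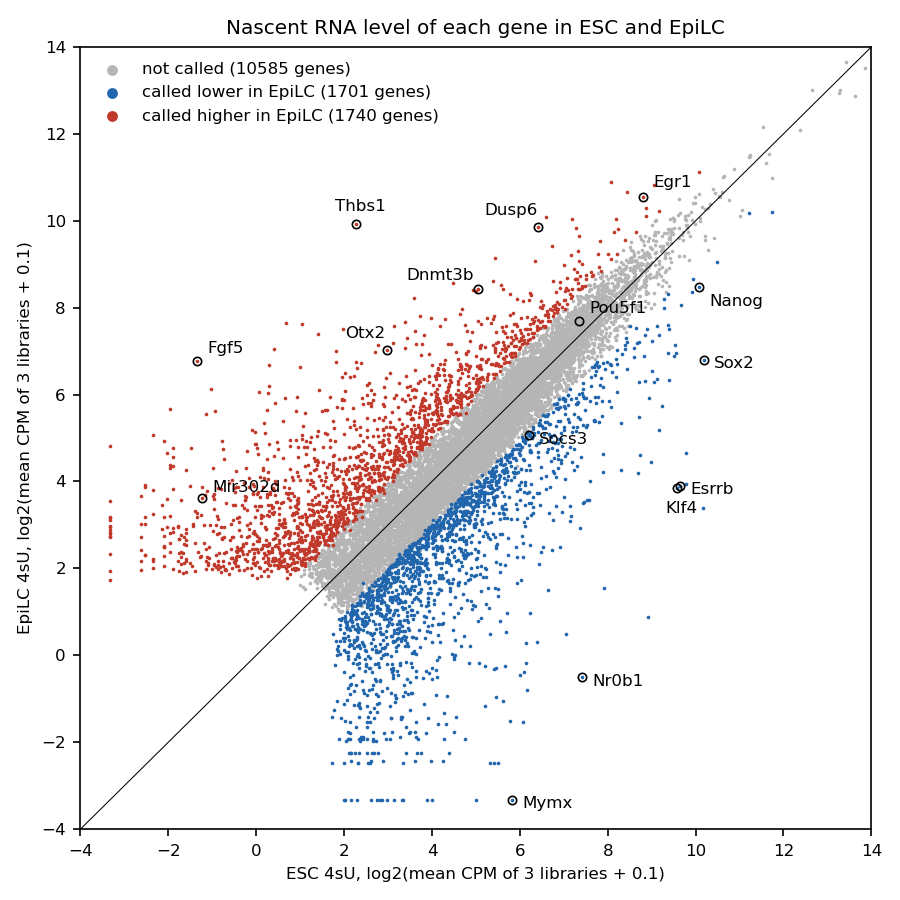
Mean log2 level of each tested gene in ESC 4sU RNA (x axis) against EpiLC 4sU RNA (y axis), as log2 of mean TMM-scaled CPM plus 0.1, with called genes coloured by direction. The 1740 genes called higher lie above the diagonal and the 1701 called lower below it.

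Every tested gene of the naive pluripotency list fell. All 18 were called lower (against 12.1% of all genes), with a median log2 difference of -5.43, and without ESC replicate 3 the count was again 18. Of the 12 transcription factors 2, and of the 6 other markers 3, passed the filter in ESCs alone and so had to differ. This list and the formative list below hold known markers of their states, so their directions are not independent. Klf4, a factor that sustains self-renewal downstream of LIF, stood at 667, 772 and 868 CPM in ESCs and 16.6, 14.3 and 11.9 CPM in EpiLCs (log2 difference -5.73 ± 0.18, adjusted p = 7.96e-10). Esrrb, an orphan nuclear receptor of the naive network, stood at 894, 896 and 629 CPM in ESCs and 17.9, 14.5 and 11.9 CPM in EpiLCs (log2 difference -5.74 ± 0.22, adjusted p = 1.78e-09). Tbx3 (chr5:119670669-119684724 in the mm10 gene models) went from 1155, 1309 and 966 to 13.2, 7.95 and 9.88 CPM (-6.80 ± 0.22). In each case the highest EpiLC library was far below the lowest ESC library. Tfcp2l1 fell by 5.82 on the log2 scale, Klf2 by 5.14 and Zfp42, the classical marker Rex1, by 4.48. Nr0b1, also called Dax1, went from 182, 222 and 108 to 0.779, 0.702 and 0.329 CPM, and ESC replicate 3 was the lowest of its ESC values (-7.83 ± 0.86). Jam2, an adhesion molecule, went from 562, 453 and 440.1 to 2.34, 0.935 and 1.98 CPM and had the largest fall of the list (-8.12 ± 0.40). The smallest falls of the list were those of 3 genes. Nanog went from 1075, 1253 and 905 to 404, 317 and 346 CPM (-1.59 ± 0.13). Klf5 went from 553, 623 and 368 to 164, 127 and 161 CPM (-1.75 ± 0.17) and Gbx2 from 28.1, 34.1 and 11.5 to 5.45, 7.02 and 6.26 CPM (-1.89 ± 0.43). Tet2, a methylcytosine dioxygenase, fell from 512, 556 and 649.8 to 38.96, 34.6 and 34.9 CPM (-3.97 ± 0.13). Dppa3 was the only listed gene under the filter, with 23 reads over the 3 ESC libraries and 11 over the 3 EpiLC libraries.

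The LIF pathway fell at its receptors and at STAT3 itself, while several of its target genes did not. Of 16 genes tested, 8 were lower and 1 was higher (median -0.62). The filter let in 2 of the 4 transcription factors through ESCs alone, and these had to differ. Lifr, the ligand-binding receptor chain, went from 179.8, 169 and 156 to 24.4, 21.3 and 25.4 CPM (log2 difference -2.83 ± 0.13, adjusted p = 8.32e-09). Il6st, which encodes the shared gp130 chain, went from 259, 227 and 172 to 103, 90.97 and 104 CPM (-1.13 ± 0.14). Stat3 went from 77.1, 73.1 and 63.03 to 13.2, 12.6 and 13.8 CPM, with no overlap between groups (log2 difference -2.42 ± 0.16, adjusted p = 1.45e-07). Among the kinases, Tyk2 fell (-1.46 ± 0.26), while Jak1 and Jak2 were at -0.10 and 0.25 and were not called. Stat5a fell (-2.28 ± 0.36), and Stat5b was not called (0.11). The targets went different ways. Socs3, the feedback inhibitor of the receptor, was at 68.9, 82.5 and 68.8 CPM in ESCs and 36.4, 30.2 and 33.3 CPM in EpiLCs (-1.15 ± 0.13). Bcl3 fell by 3.00 on the log2 scale. Pim1 was at 0.85 (adjusted p = 5.39e-05), under the fold limit, Pim3 was at 0.12 and Cish rose (1.33 ± 0.26). Socs3 fell more in total RNA (-2.66) than in 4sU RNA, and that difference was itself called (interaction log2 -1.45, adjusted p = 0.00168).

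Promoters of these genes were searched, on both strands, for the STAT half-site pair TTCNNNGAA in the 300 bases from 250 before to 50 after each RefSeq start (GRCm38.p6). It was found in 2 of 14 LIF-list genes with a promoter sequence (14.3%), 1 of 11 naive genes, 7.97% of the 9660 tested genes with one and 9.55% of all 27025. The LIF-list genes with a match were Socs3, which fell, and Cish, which rose and is not shown. The matches of Socs3 and Esrrb are shown in 30-base windows, 5′ to 3′ on the gene's strand, with the match in capitals.
Socs3: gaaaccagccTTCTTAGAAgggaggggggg
Esrrb: aacggaaactTTCGTGGAAagcacttgagc
The Socs3 window is chr11:117969501-117969530 (minus strand), with the match starting at base -154 from the start site. The Esrrb window is chr12:86360929-86360958 (plus strand), with the match at -178. Neither overlaps another motif searched. A match is a string of letters and was not tested for binding, and the TCAAGGTCA string read by Esrrb itself was in 0 of the 11 naive promoters and 0.331% of tested ones.

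Formative genes rose. Of 16 tested, 13 were called higher and none lower (median 2.40). Fgf5 (chr5:98254184-98277030), the ligand that marks the formative epiblast, was at 0.216, 0.375 and 0.286 CPM in ESCs and 105, 103 and 119 CPM in EpiLCs (log2 difference 8.08 ± 0.45, adjusted p = 3.17e-08). Otx2, a homeodomain factor that redirects enhancers on exit from the naive state, was at 7.77, 7.31 and 8.31 CPM in ESCs and 146, 110.1 and 132 CPM in EpiLCs (log2 difference 4.03 ± 0.20, adjusted p = 1.06e-08). Pou3f1, also called Oct6, went from 10.4, 13.7 and 15.2 to 237, 212 and 227 CPM (4.13 ± 0.16). For all 3 genes the lowest EpiLC library exceeded every ESC library. The de novo methyltransferases Dnmt3b (3.40 ± 0.12) and Dnmt3a (1.21 ± 0.15) both rose. Sall2 rose by 3.41, Sox3 by 2.89, Sox4 by 2.53 and Grhl2, an epithelial pioneer factor, by 2.27. Sox11 went from 61.1, 66.6 and 19.2 to 339.8, 331 and 356 CPM (2.92 ± 0.30, and 2.42 ± 0.098 without ESC replicate 3). Lef1, a transcriptional partner of beta-catenin, was at 33.2, 19.5 and 4.01 CPM in ESCs and 34.03, 32.3 and 29.98 CPM in EpiLCs and was not called (1.07 ± 0.46, adjusted p = 0.066). Without ESC replicate 3 it was at 0.36 ± 0.18 (adjusted p = 0.0982), and without ESC replicate 1 it was called at 1.63. Foxd3 (-0.46) and Tcf15 (-0.094) were not called.

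The core pluripotency genes divided, with Sox2 falling and Lin28 genes rising. Of 10 tested, 3 were higher and 1 was lower. Sox2 was at 1368, 1391 and 741 CPM in ESCs and 129, 95.9 and 111 CPM in EpiLCs (log2 difference -3.34 ± 0.21, adjusted p = 9.04e-08), and at -3.64 ± 0.097 without ESC replicate 3, its lowest ESC library. Pou5f1, which encodes Oct4, was at 179, 182 and 126 CPM in ESCs and 213, 208 and 195 CPM in EpiLCs and was not called (0.35 ± 0.13, adjusted p = 0.042). Its total RNA went the other way (-0.76), and the difference between the assays was called (adjusted p = 0.00176). Lin28a, an RNA-binding protein that blocks let-7 maturation, went from 125, 150.2 and 42.4 to 682, 662 and 699.7 CPM (2.84 ± 0.31, and 2.31 ± 0.092 without ESC replicate 3). Lin28b went from 22.02, 26.3 and 13.5 to 135, 143 and 149 CPM (2.78 ± 0.18). Tdgf1, the Nodal co-receptor Cripto, rose (2.02 ± 0.18). Sall4 (0.31), Zfp281 (0.22) and Trim71 (0.14) were not called, nor was Utf1, at 0.95 ± 0.15.

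The miRNA loci that carry the reporters changed in opposite directions at unequal scale. Hairpins of the miR-302/367 cluster (chr3:127545228-127545807), which lies inside Larp7 on the opposite strand, rose by 4.38 to 5.34 on the log2 scale, all 5 called. Those of the miR-290 cluster on chromosome 7 fell by 0.53 to 1.23, with 3 of 7 called. Mature sequences are given because members of both clusters begin alike. The seed, bases 2 to 8, is in capitals, and sequences are from RefSeq (GRCm38.p6).
miR-302b-3p: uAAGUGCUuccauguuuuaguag
miR-302d-3p: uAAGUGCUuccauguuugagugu
miR-291a-3p: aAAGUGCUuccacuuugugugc
miR-294-3p: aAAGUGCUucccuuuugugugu
miR-295-3p: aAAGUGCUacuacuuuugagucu
miR-290a-3p: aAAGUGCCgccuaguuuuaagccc
miR-367-3p: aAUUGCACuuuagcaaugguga
The first 5 share the seed AAGUGCU, which the rising and the falling locus therefore both encode. Reads measure the unprocessed transcript over each hairpin, not the mature miRNA. Mir302a was at 1.08, 1.13 and 0.286 CPM in ESCs and 35.6, 38.8 and 34.6 CPM in EpiLCs (log2 difference 5.34 ± 0.42, adjusted p = 5.78e-07). Mir302b rose by 5.01, Mir302c by 4.43 and Mir302d by 5.17, while Mir367 had 3 reads over all ESC libraries and went from 0.216, 0.188 and 0.286 to 8.05, 6.31 and 6.59 CPM. Larp7 itself was at 0.41 ± 0.13 and was not called. Mir290a was at 59.4, 64.9 and 58.2 CPM in ESCs and 27.8, 23.2 and 29.3 CPM in EpiLCs (log2 difference -1.20 ± 0.14, adjusted p = 1.14e-05). Mir292 (-1.23 ± 0.14) and Mir294 (-1.08 ± 0.22) were called lower, and Mir291a (-0.93), Mir293 (-0.71), Mir295 (-0.70) and Mir291b (-0.53) were not. The groups were apart for Mir290a, whose highest EpiLC library was below its lowest ESC library. Mir17hg, the host transcript of the miR-17/92 cluster, rose from 561, 685 and 487 to 1160.3, 1264 and 1164 CPM (1.06 ± 0.12).

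**Figure D2:**
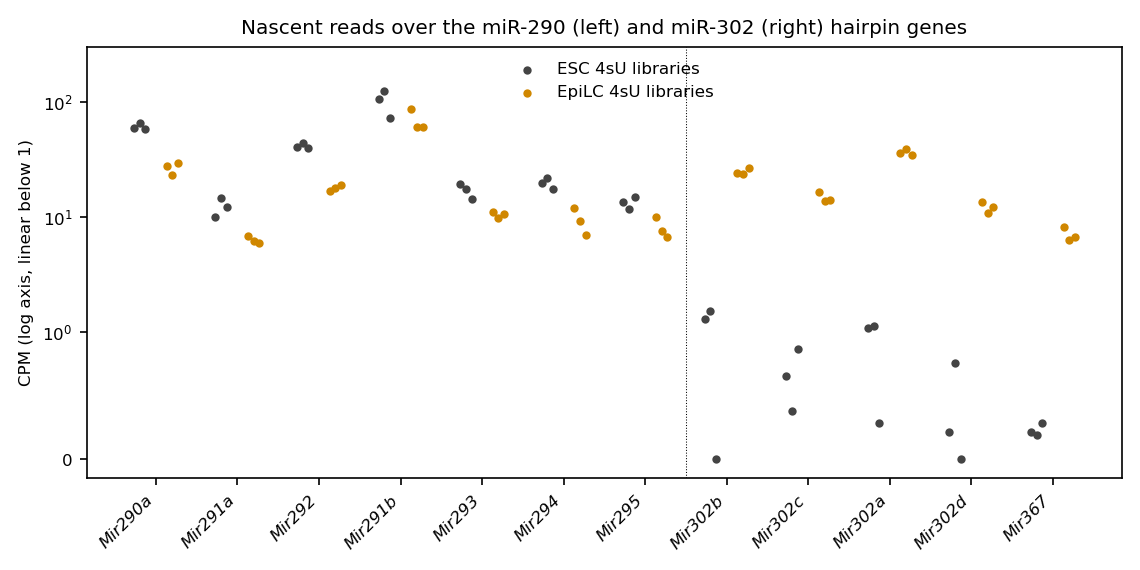
Nascent level of each miR-290 and miR-302/367 hairpin in the 6 4sU libraries, as TMM-scaled CPM on a log axis that is linear below 1, with 1 point per library. Mir302a rises from at most 1.13 CPM to at least 34.6, while Mir290a falls from at least 58.2 to at most 29.3.

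Feedback and output genes of the ERK cascade rose in part. Of 17 tested, 7 were called higher and none lower (median 0.80), and the counts were the same without ESC replicate 3. Dusp6, a phosphatase that inactivates ERK and is itself an ERK output, went from 100.4, 117 and 39.3 to 1049, 791 and 942 CPM (log2 difference 3.54 ± 0.28, adjusted p = 5.46e-07). ESC replicate 3 was its lowest ESC library, and without it Dusp6 was at 3.08 ± 0.12. Dusp4 rose from 19, 19.9 and 14.9 to 60.3, 50.5 and 55.7 CPM (1.61 ± 0.15), and the receptor-level inhibitor Il17rd rose (1.55 ± 0.16). Fosl1, an AP-1 subunit, went from 0.432, 1.13 and 0.286 to 18.7, 11.7 and 9.88 CPM (4.28 ± 0.57). Spred3 (2.44), Phlda1 (1.80) and Spry1 (1.25) were also higher. Other ERK outputs did not pass the test. Etv4 was at -0.42 ± 0.21, Etv5 at 0.31 ± 0.15 and Spry2 at 0.30 ± 0.14, each with overlapping groups and none called. Spry4 was at 103, 111 and 18.9 CPM in ESCs and 98.2, 60.8 and 82.4 CPM in EpiLCs (0.31 ± 0.48), and its value turned to -0.45 ± 0.14 without ESC replicate 3, still uncalled.

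Immediate early genes, which respond to growth factors within minutes, were higher for 12 of 18 and lower for none (median 1.37). The count higher was 13 without ESC replicate 3 and 9 to 13 over the fits that left out 1 library. Egr1, Fosb and Ier5 lost their calls without EpiLC replicate 1. Klf6 was at 236, 249.96 and 329 CPM in ESCs and 2095, 1784 and 1796 CPM in EpiLCs and had the largest gain in CPM of any called gene (log2 difference 2.82 ± 0.13, adjusted p = 5.94e-09). Fosl2, an AP-1 subunit, went from 3.02, 7.69 and 9.45 to 175, 122 and 123 CPM (4.52 ± 0.33). Jun went from 58.9, 73.9 and 88.8 to 343, 278 and 252 CPM (1.99 ± 0.15), and Zfp36, which destabilizes AU-rich mRNAs, from 30.2, 29.8 and 30.9 to 396, 295 and 325 CPM (3.47 ± 0.14). These 4 genes had no overlap between groups. Fos itself was not called, at 109, 104 and 49.3 CPM in ESCs and 115, 68.1 and 60.9 CPM in EpiLCs (-0.090 ± 0.28, adjusted p = 0.806). Egr1 depended on single libraries. It was at 754, 567 and 25.8 CPM in ESCs and 2025, 1241 and 1212 CPM in EpiLCs (log2 difference 2.66 ± 0.86, adjusted p = 0.0202), with ESC replicate 3 far under the other ESC libraries. Without ESC replicate 3 it was at 1.15 ± 0.16 (adjusted p = 3.55e-06), without EpiLC replicate 1 the call was lost at 2.43, and DESeq2 did not call it (adjusted p = 0.198). Egr2 was called at 1.45 ± 0.40 and not without ESC replicate 3 (0.86 ± 0.20). Atf3 was high in ESC replicate 3 instead, at 24.8, 30 and 103 CPM in ESCs and 81.3, 75.3 and 75.4 CPM in EpiLCs, and went from 0.94 ± 0.35, uncalled, to 1.49 ± 0.13, called, without that library. Promoters of 2 of 15 list genes held a CArG box (13.3%), the string read by serum response factor, against 1.61% of tested promoters. Many immediate early genes are known as targets of that factor, so the list is not independent of the motif.

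**Figure D3:**
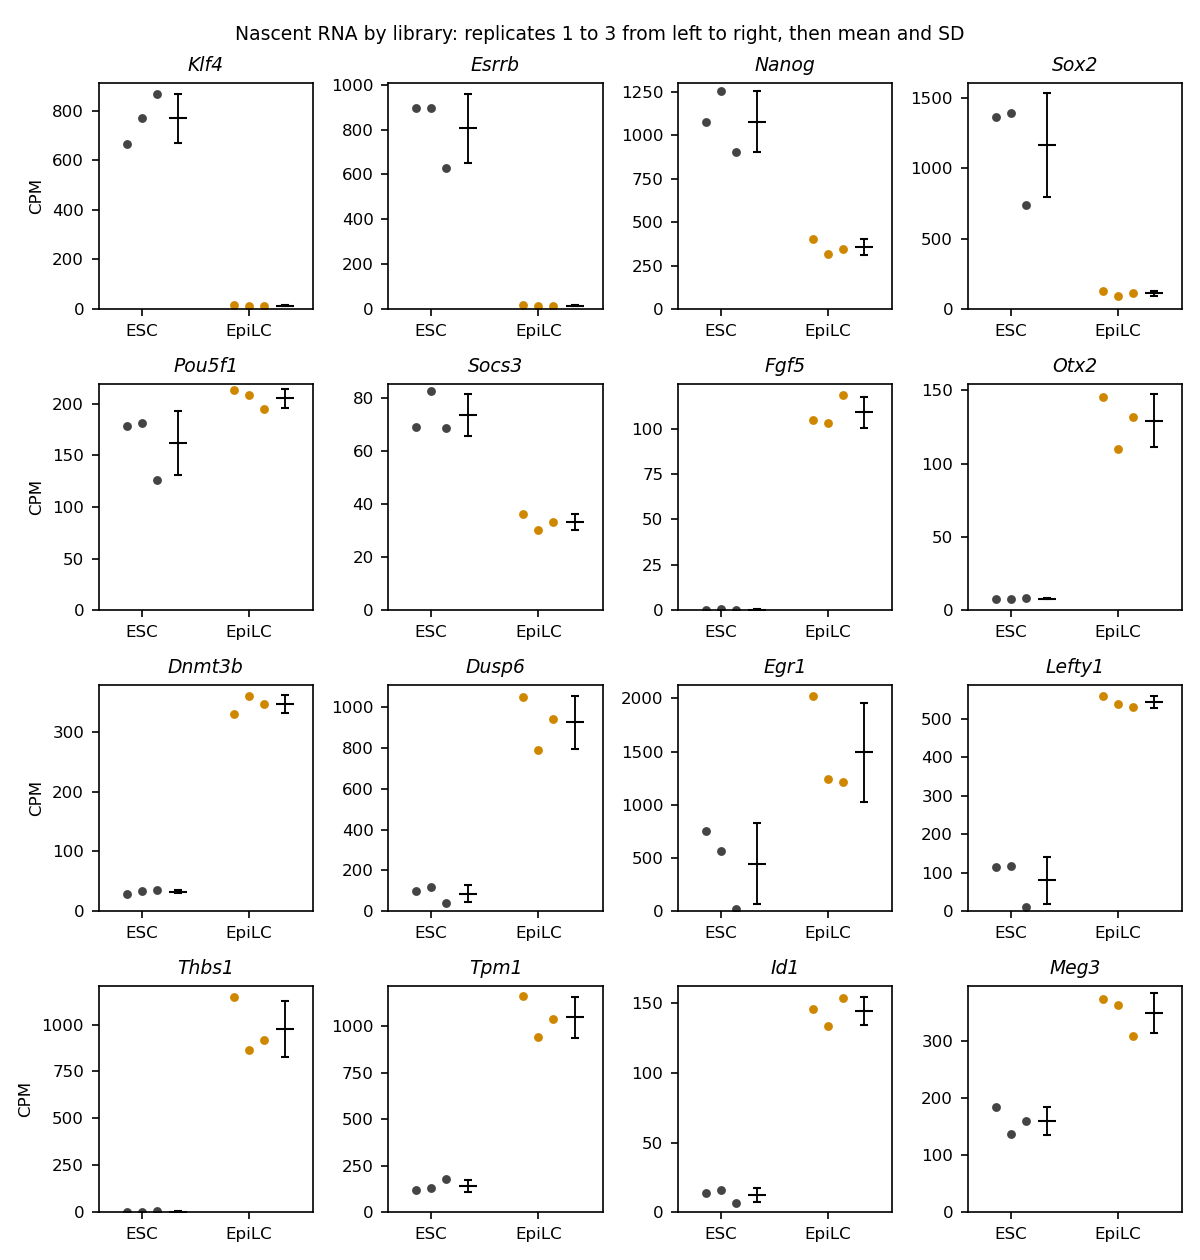
Nascent level of selected genes in each of the 6 4sU libraries (TMM-scaled CPM, linear axis from 0), with 1 point per library and the mean ± SD of each group beside them. Klf4, Otx2 and Thbs1 separate the groups in every library, while Egr1 in ESC replicate 3 (25.8 CPM) lies far below the other ESC libraries (754 and 567).

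Some FGF ligands fell while others rose. Of 14 tested genes of 16 listed, 7 were higher and 4 lower. Of the 8 tested ligands, 4 passed the filter through EpiLCs alone and 2 through ESCs alone. Of the 4 tested receptors, 1 passed through EpiLCs alone. Such genes had to differ, so these counts support nothing. Fgf4, the main autocrine ligand of ESCs, went from 938, 1107 and 840.3 to 310.1, 347 and 335 CPM (log2 difference -1.53 ± 0.11, adjusted p = 3.11e-07). Fgf8 went from 0.216, 0.563 and 0.286 to 52.2, 39.3 and 49.4 CPM (6.69 ± 0.51) and Fgf15 from 1.08, 1.69 and 0.573 to 55.1, 57.3 and 83.02 CPM (5.72 ± 0.49). Fgf5 is given above with the formative genes. Fgf13, an intracellular family member, rose by 3.16 and Fgf17 by 1.73, while Fgf10 fell by 2.73 and Fgf3 by 1.82. Among the receptors, Fgfr2 rose from 5.61, 5.06 and 6.3 to 45.7, 30.6 and 33.3 CPM (2.67 ± 0.25) and Fgfr3 at low counts (1.94 ± 0.41). Fgfr1 was at 71.03, 59.3 and 80.2 CPM in ESCs and 115, 102 and 98.2 CPM in EpiLCs (0.60 ± 0.13), under the fold limit. Of the adaptors, Frs3 fell (-1.29 ± 0.19) and Frs2 was not called (0.42). Fgfr4 and Fgf18 were under the filter, with 40 ESC and 4 EpiLC reads for Fgfr4.

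Direct targets of beta-catenin were called about as often as genes in general. Of 12 tested, 1 was higher and 2 lower (25.0% against 24.5% of all genes, median 0.24). Axin2, the most general target, was at 161, 172 and 95.1 CPM in ESCs and 111, 79.5 and 83.02 CPM in EpiLCs (-0.62 ± 0.20), with overlapping groups. Notum, a secreted Wnt inhibitor, fell from 9.5, 13.9 and 13.8 to 0.26, 0.468 and 0 CPM (-5.20 ± 0.55), and Cdx1 fell from 9.93, 11.6 and 4.3 to 1.04, 0.702 and 0.329 CPM (-3.43 ± 0.65). T, the mesoderm factor Brachyury, rose from 1.94, 1.13 and 0 to 26.8, 11.5 and 11.9 CPM (4.30 ± 0.81). ESC replicate 3 was low for T, Cdx1, Sp5 and Lef1, in 4sU and in total RNA alike, and without it the counts were again 1 and 2, with T at 3.33 ± 0.56. Leaving out ESC replicate 1 gave 3 called higher.

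Of 24 tested Wnt ligands, receptors and antagonists of 29 listed, 9 were higher and 5 lower, as many as without ESC replicate 3. Among them 3 of 6 tested ligands were higher, and 4 of these 6 passed the filter through EpiLCs alone, so that count supports nothing. Wnt3 went from 0.648, 0.375 and 0.86 to 27.01, 13.6 and 16.1 CPM (log2 difference 4.73 ± 0.60, adjusted p = 2.84e-05), Wnt8a from 0, 0.375 and 0.573 to 10.7, 8.89 and 8.24 CPM (4.83 ± 0.57) and Wnt4 from 0.432, 0.375 and 0 to 9.61, 6.31 and 7.25 CPM (4.54 ± 0.55). All 3 ligands were near 0 in every ESC library, and Wnt4 was at 3.94 ± 0.61 without ESC replicate 3. Wnt5b (-0.093), Wnt7b (0.92) and Wnt11 (0.90) were not called, and Wnt3a, under the filter, had 22 ESC and 3 EpiLC reads. Among the Frizzled receptors Fzd5 fell, from 503, 629 and 411 to 102, 83.5 and 94.9 CPM (-2.45 ± 0.15), while Fzd2 rose from 7.56, 6.75 and 10.3 to 102, 74.6 and 92.6 CPM (3.48 ± 0.21). Fzd6 rose by 1.92 and Fzd3 by 1.58. Fzd7 was called at 1.09 ± 0.31 but stood at 0.56 ± 0.089, uncalled, without ESC replicate 3. The antagonist Sfrp1 fell from 177, 218 and 302 to 48.3, 45.4 and 42.2 CPM (-2.31 ± 0.18), Dkk3 and Shisa2 fell by 1.46 and 1.35, and Sfrp2 rose by 1.96. Of the alternative receptors, Ror2 fell (-1.35) and Ror1 rose (2.89, and 2.39 ± 0.41 without ESC replicate 3). Lrp5 and Lrp6, the co-receptors, were at 0.27 and 0.41 and were not called.

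Nodal pathway genes rose at the co-receptor and at several targets. Of 20 tested genes of 22 listed, 7 were higher and 2 lower (median 0.74), and the counts were the same without ESC replicate 3. Nodal itself was at 228, 218 and 217 CPM in ESCs and 529.9, 391 and 406 CPM in EpiLCs (0.99 ± 0.12, adjusted p = 2.01e-05), with no overlap but just under the fold limit, and it was called without ESC replicate 1. Lefty1, a target that inhibits Nodal, went from 116, 117 and 10.6 to 560.04, 539 and 530.1 CPM (3.25 ± 0.58, and 2.22 ± 0.086 without ESC replicate 3). Lefty2 was at 64.98, 57.01 and 7.45 CPM in ESCs and 50.4, 37.4 and 44.5 CPM in EpiLCs, uncalled at 0.37 ± 0.54 and at -0.48 ± 0.13 without that library. In the total RNA of ESC replicate 3 both Lefty genes were below 0.5 times both other libraries. Skil, a co-repressor of Smads, rose from 163, 168 and 132 to 976, 861 and 914 CPM (2.57 ± 0.11). Inhba, an Activin subunit, went from 0.216, 0 and 0 to 8.05, 9.12 and 6.92 CPM with 1 read over the ESC libraries, while Inhbb fell (-2.60 ± 0.39). Foxh1 and Acvr2a rose by 1.27 and 1.12, and the convertase Pcsk6 fell by 1.22.

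Of 16 tested BMP pathway genes of 19 listed, 3 were higher and 1 lower (25.0% against 24.5% of all genes, median 0.16). The Id genes, direct targets of Smad1, did not move together. Id1 rose from 14.2, 15.9 and 6.59 to 145, 134 and 154 CPM (log2 difference 3.56 ± 0.23, adjusted p = 8.68e-08), Id4 fell from 39.1, 40.9 and 23.2 to 11.2, 10.8 and 12.2 CPM (-1.59 ± 0.25), and Id2 and Id3 were not called, at -0.081 ± 0.13 and -0.22 ± 0.13. Bmpr2, the type II receptor, rose (1.19 ± 0.098), as did Bmp8b at low counts (2.24 ± 0.39). Bmp4 was at -0.95 ± 0.33, uncalled, and was called at -1.15 ± 0.30 without ESC replicate 3.

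Notch pathway genes rose in part, with 7 of 15 tested higher and none lower (17 listed, median 0.98). Notch3 went from 25.7, 27 and 30.7 to 201, 177 and 152 CPM (log2 difference 2.67 ± 0.14, adjusted p = 1.9e-08) and Notch2 from 69.1, 74.8 and 81.9 to 199, 209.8 and 180.2 CPM (1.39 ± 0.11), while Notch1 was at -0.72 and was not called. The ligands Jag2 (1.56) and Dll3 (1.76) and the glycosyltransferase Lfng (1.77) rose. Of the targets, Hes6 rose (1.93 ± 0.23), and Hes1 was at 91.3, 93.9 and 91.7 CPM in ESCs and 209, 153 and 189 CPM in EpiLCs (0.98 ± 0.12), just under the fold limit. In the retinoid list 3 of 8 tested genes were higher and 1 lower, of 15 listed, the higher ones being the retinoid dehydrogenase genes Dhrs3 (1.24 ± 0.21) and Rdh10 (1.13 ± 0.16) and Crabp2 (1.11 ± 0.34), whose call was lost without ESC replicate 3. Crabp1, another cellular retinoic acid binding protein, fell (-2.69 ± 0.77). Cyp26a1, the induced retinoic acid hydroxylase, was under the filter, with 5 ESC and 14 EpiLC reads.

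Genes of the YAP and TEAD list rose more often than they fell. Of 26 tested genes of 28 listed, 12 were higher and 3 lower (median 0.85). Ccn1, a matricellular target also called Cyr61, went from 204, 282 and 557 to 1859.6, 1512 and 1509 CPM (log2 difference 2.36 ± 0.26, adjusted p = 7.93e-06), with ESC replicate 3 the highest ESC library. Ankrd1 went from 0.216, 0 and 0.286 to 31.4, 12.9 and 16.5 CPM, with 2 reads over the ESC libraries (6.33 ± 0.79). Lats2, a kinase that restrains YAP, rose from 61.5, 51.2 and 54.7 to 171, 123 and 139 CPM (1.36 ± 0.14). Igfbp3 went from 14.9, 19.13 and 13.2 to 249, 198 and 203 CPM (3.76 ± 0.17). Amotl2 was at 660.4, 793 and 898 CPM in ESCs and 1662, 1340.4 and 1362 CPM in EpiLCs, not overlapping but under the fold limit (0.90 ± 0.13). Ccn2, also called Ctgf, was not called (-0.27 ± 0.13, adjusted p = 0.0896). Myof fell from 72.5, 57.01 and 77.4 to 7.01, 9.59 and 6.59 CPM (-3.11 ± 0.23). The factors themselves split. Tead4 fell from 61.3, 55.5 and 42.1 to 9.61, 4.44 and 5.27 CPM (-3.09 ± 0.29), Tead3 rose from 6.69, 7.31 and 8.02 to 41.3, 35.8 and 33.9 CPM (2.33 ± 0.19), Tead2 rose by 1.06 and Tead1 was at 0.25. Yap1 (0.81) and Wwtr1 (-0.097) were not called.

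The TEAD string GGAATG, or its reverse complement, was in the 300-base promoter of 11 of 18 genes of this list that had one (61.1%), 14.2% of tested promoters and 16.6% of all. Many of the list's genes are known as TEAD targets, so the list is not independent of the motif. The windows of Ccn1, Ankrd1 and Lats2, all called higher, are given with the match in capitals. Amotl2, Axl, Yap1 and Wwtr1 also held the string and were not called. Ajuba, Crim1, Ptpn14 and Tead3 held it and were higher.
Ccn1: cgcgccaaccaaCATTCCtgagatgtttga
Ankrd1 (distal): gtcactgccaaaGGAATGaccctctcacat
Ankrd1 (proximal): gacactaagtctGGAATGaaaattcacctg
Lats2: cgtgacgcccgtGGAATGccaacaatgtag
Ccn1 is at chr3:145650071-145650100 with the match on the opposite strand at base -103. Ankrd1 is at chr19:36120037-36120066 and chr19:36119950-36119979, with matches at -210 and -123. Lats2 is at chr14:57746102-57746131, with the match starting at base 5. All are on the minus strand of GRCm38.p6, and none overlaps another motif searched.

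Genes of the actin cytoskeleton and smooth muscle contraction rose together. Of 16 tested genes of 17 listed, 11 were higher and none lower (median 1.24). The filter let in 2 of them through EpiLCs alone, and these had to differ. Tagln, an actin-bundling marker of smooth muscle, went from 7.34, 9 and 9.74 to 221, 187 and 165 CPM (log2 difference 4.45 ± 0.20, adjusted p = 5.36e-09). Cnn1, or calponin, went from 1.51, 0.75 and 0.86 to 36.4, 32.3 and 34.9 CPM (4.96 ± 0.37). Acta2, smooth muscle actin, had no read in any ESC library and 32, 28 and 15 in the EpiLC libraries, at least 29.2-fold higher against a floor of 3 reads over the ESC group. Tpm1 went from 121, 132 and 181 to 1162, 943 and 1038 CPM (2.88 ± 0.14) and Vcl, the vinculin gene, from 94.1, 80.8 and 90.2 to 277, 245 and 251 CPM (1.54 ± 0.11). None of these genes overlapped between groups. Srf, the factor that drives many of them, was at -0.060 in 4sU RNA, not called, and at 1.24 in total RNA. A CArG box was in 4 of 15 promoters of the list (26.7%), Cnn2, Myl9, Srf and Vcl, against 1.61% of tested ones. Because Srf drives many of the list's genes, the list is not independent of the motif. Myl9 and Vcl were higher, while Cnn2 (0.98) and Srf were not called. The box of Myl9, the regulatory light chain, which rose from 3.24, 4.5 and 6.59 to 24.7, 22.2 and 23.7 CPM (2.37 ± 0.25), is shown.
Myl9: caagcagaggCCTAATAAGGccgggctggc
It lies at chr2:156775293-156775322 (plus strand, GRCm38.p6), with the match at -161. In total RNA Tagln and Myl9 rose more than in 4sU RNA, by 2.12 and 2.27 on the log2 scale, each called by the interaction test.

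Epithelial genes were among the most uniform risers. Of 13 tested, 11 were higher and none lower (median 3.21). The filter let in 2 of the 13 through EpiLCs alone, and these had to differ. Esrp1, an epithelial splicing regulator, went from 3.67, 2.25 and 4.3 to 128, 124 and 133 CPM (log2 difference 5.29 ± 0.25, adjusted p = 8.99e-09). Cldn7 went from 0.432, 0.938 and 2.01 to 89.6, 61.5 and 69.5 CPM (6.16 ± 0.51) and Cldn6 from 12.7, 9 and 14.6 to 202, 164 and 167 CPM (3.92 ± 0.19), both tight junction claudins. The simple-epithelium keratins Krt8, Krt18 and Krt19 rose by 3.31, 3.98 and 3.75. Epcam went from 42.7, 49.3 and 35.8 to 233, 222 and 218 CPM (2.39 ± 0.12), and Cdh1, E-cadherin, from 363, 385 and 457 to 901, 814 and 861 CPM (1.10 ± 0.11). Cldn4 (-0.022) and Tjp1 (0.80) were not called. Mesenchymal genes showed no such pattern, with 2 higher and 2 lower of 7 tested and 4 of 11 under the filter. Zeb1 fell from 71.5, 77.4 and 72.5 to 10.9, 14.03 and 8.89 CPM (-2.69 ± 0.18) while its paralog Zeb2 rose from 1.3, 1.13 and 3.44 to 8.05, 9.82 and 9.55 CPM (2.42 ± 0.38). Cdh2, N-cadherin, was at 0.35 ± 0.26 and Vim at 0.39 ± 0.22, neither called.

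Matrix and integrin genes went both ways, with 9 higher and 6 lower of 25 tested and 28 listed (median 0.33). Thbs1 (chr2:118111876-118127133), thrombospondin, went from 2.81, 2.81 and 8.6 to 1146, 866 and 916 CPM (log2 difference 7.96 ± 0.33, adjusted p = 3.36e-09). Fn1, fibronectin, went the other way, from 859, 813 and 601 to 149.9, 118 and 107 CPM (log2 difference -2.60 ± 0.15, adjusted p = 5.07e-08). Groups were apart for both. Among laminin chains Lama1 fell from 58.9, 57.4 and 83.7 to 8.05, 6.55 and 2.96 CPM (-3.49 ± 0.32) and Lamc1 fell (-1.24 ± 0.10), whereas Lama5 (1.63 ± 0.14) and Lamb1 (2.37 ± 0.12) rose. Both nidogens fell, Nid1 by 3.35 and Nid2 by 1.41, and the basement membrane collagens Col4a1 and Col4a2 rose by 1.66 and 1.22. Itgb1, the common beta chain, went from 119.6, 123 and 143 to 513, 474 and 528 CPM (1.98 ± 0.10). Itga3, which pairs with it, rose by 2.08, Itgb3 fell by 2.08 at low counts, and Itga6 was at -0.55 ± 0.11.

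**Figure D4:**
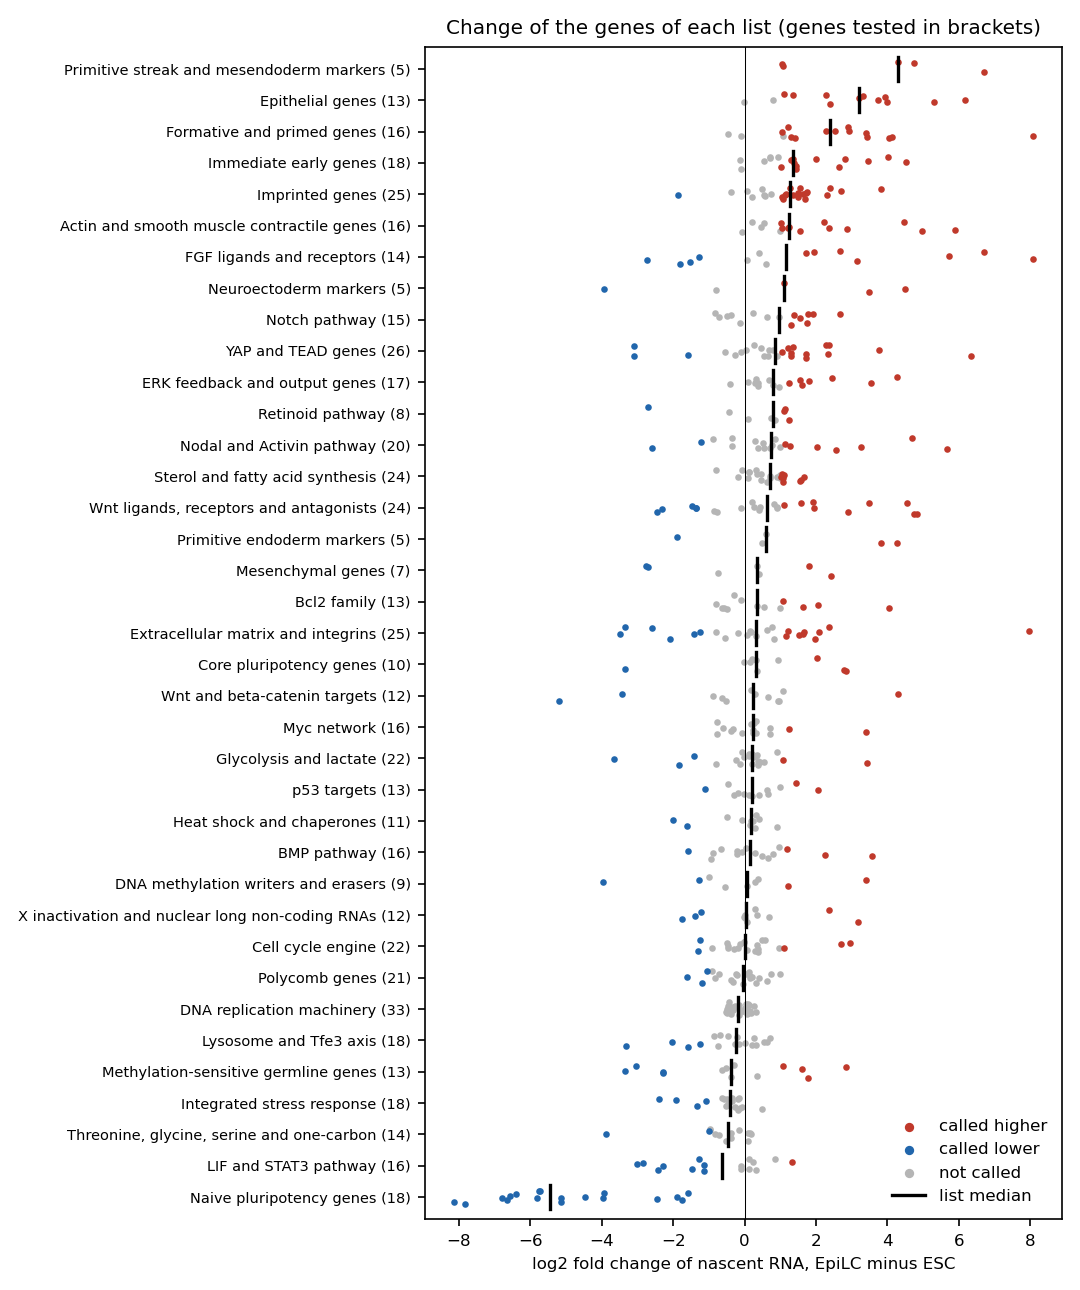
Log2 differences (EpiLC minus ESC, 4sU RNA) of the tested members of each gene list, 1 point a gene, with the list's median marked. Naive genes lie wholly below 0 (median -5.43), and epithelial, formative and contractile genes mostly above it.

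The de novo DNA methyltransferases Dnmt3a and Dnmt3b rose, while the dioxygenases Tet1 and Tet2 fell. Of 9 tested, 2 were higher and 2 lower. Dnmt3b went from 29.6, 33.9 and 34.95 to 330.2, 361 and 347 CPM (adjusted p = 8.06e-10) and Dnmt3a from 61.1, 55.9 and 37.8 to 112, 128 and 117 CPM (adjusted p = 2.8e-05). Tet1 fell from 1105, 1004 and 819 to 369, 397 and 441 CPM (-1.27 ± 0.12), as Tet2 did, and Tet3 was at 0.37. The maintenance enzyme Dnmt1 was at 0.078 and its partner Uhrf1 at -0.55 ± 0.097, not called. Dnmt3l, a catalytically inactive cofactor, was at -0.99 ± 0.15 and was called at -1.14 ± 0.11 without ESC replicate 3. Germline genes known to depend on promoter methylation gave 4 higher and 4 lower of 13 tested, with 6 of 19 under the filter. The filter let in 2 of the 13 through ESCs alone and 2 through EpiLCs alone, and such genes had to differ. Sycp1, one of those called higher, lost its call without ESC replicate 1, ESC replicate 2, EpiLC replicate 1 or EpiLC replicate 2. Dazl fell from 27.9, 25.7 and 26.6 to 5.71, 5.85 and 4.28 CPM (-2.30 ± 0.22) and Tex19.1 by 2.29, while Ddx4 rose from 4.53, 6 and 4.01 to 15.8, 17.3 and 17.8 CPM (1.77 ± 0.23). Dppa2 (-0.29) and Dppa4 (-0.37) were not called. Among 21 Polycomb genes none was higher and 3 were lower (14.3% against 24.5% of all genes). Of these, Mtf2 was at 908, 844 and 708 CPM in ESCs and 266, 257 and 277 CPM in EpiLCs (log2 difference -1.61 ± 0.11, adjusted p = 1.59e-07). Ezh2 (0.22) and Suz12 (-0.24) were not called. Bmi1 lost its call without ESC replicate 3.

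Imprinted genes rose in number. Of 25 tested genes of 28 listed, 17 were higher and 1 lower (median 1.28). The filter let in 3 of the 25 through EpiLCs alone, and these had to differ. H19 went from 1.73, 1.5 and 2.29 to 21.3, 24.1 and 37.2 CPM (log2 difference 3.81 ± 0.40, adjusted p = 5.8e-06), and Igf2, its neighbour on chromosome 7, from 4.97, 2.81 and 4.87 to 14.5, 12.2 and 12.5 CPM (1.69 ± 0.27). The maternally expressed transcripts Meg3, Rian and Mirg of chromosome 12 rose by 1.12, 1.17 and 1.36. Peg10 went from 41.2, 42 and 48.4 to 163, 134 and 141 CPM (1.74 ± 0.12), Peg3 from 69.5, 48.01 and 60.2 to 164, 166 and 168 CPM (1.51 ± 0.13), Mest from 23.3, 29.6 and 18.6 to 76.1, 76.9 and 86.6 CPM (1.73 ± 0.16) and Impact from 182, 168 and 119 to 441, 464 and 459.9 CPM (1.56 ± 0.14). Groups did not overlap for any of the genes named so far in this paragraph. Plagl1 was the member that fell, from 114, 81.8 and 138 to 30.9, 29.5 and 28.7 CPM (-1.85 ± 0.19). Igf2r (0.49) and Kcnq1ot1 (0.057) were not called. Reads were not assigned to parental alleles.

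X-linked regulators of X inactivation differed among themselves. Tsix, the antisense repressor of Xist, fell from 317, 309 and 331 to 124, 117 and 127 CPM (log2 difference -1.38 ± 0.096, adjusted p = 2.04e-07). Ftx went from 15.3, 17.4 and 7.45 to 112, 124 and 123 CPM (3.17 ± 0.22) and Jpx rose at low counts (2.37 ± 0.44). Rlim, a ubiquitin ligase and activator of Xist, rose from 579, 555 and 281 to 1310.5, 1181 and 1249 CPM (1.47 ± 0.21). Xist was at 7.56, 6.38 and 21.2 CPM in ESCs and 3.64, 3.98 and 4.28 CPM in EpiLCs and lost its call without ESC replicate 3 (-0.78 ± 0.29) and without any single EpiLC library. Tsix and Xist overlap on opposite strands, and the reads were counted by strand. Of the 12 genes in the list of X-inactivation and nuclear non-coding RNAs, 2 were higher and 3 lower. Neat1, which scaffolds paraspeckles, fell from 725, 751 and 520.3 to 195, 193 and 193 CPM (-1.76 ± 0.13), and Malat1 was at 0.68 ± 0.19, not called.

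In the threonine, glycine and one-carbon list 2 of 14 were lower and none higher (14.3% against 24.5% of all genes, median -0.46). The count of 2 depended on the processing, at 1 by DESeq2, 3 by edgeR, 4 with library totals as scaling and 8 by adjusted p alone. Tdh, the threonine dehydrogenase on which mouse ESCs depend, went from 202, 209 and 120.3 to 12.5, 12.2 and 9.88 CPM (log2 difference -3.89 ± 0.28, adjusted p = 2.59e-07). Gcat, the next enzyme, was at the limit (-1.003 ± 0.16) and lost its call without ESC replicate 1 or EpiLC replicate 2. Among 22 glycolysis genes 2 were higher and 3 lower (22.7%). Pfkp went from 123, 111 and 91.7 to 8.31, 8.18 and 9.22 CPM (-3.64 ± 0.20), Hk1 fell from 52.9, 47.6 and 44.7 to 11.7, 15.7 and 12.8 CPM (-1.84 ± 0.17), and Slc16a3, the lactate exporter, rose from 19, 22.3 and 17.2 to 215, 218 and 203 CPM (log2 difference 3.43 ± 0.13, adjusted p = 2.25e-09). Hk2 (0.13), Ldha (0.11) and Slc2a3 (0.22) were not called. Ldhb was called at -1.41 ± 0.45, with ESC replicate 3 (17.5 CPM) inside the EpiLC range, and stood at -1.96 ± 0.15 without it. Its call was lost when any other single library but EpiLC replicate 1 was left out.

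In the sterol and fatty acid list, 8 of 24 were higher and none lower (median 0.71), with 5 of the 8 between 1.02 and 1.10 on the log2 scale. By adjusted p alone 18 were higher. Hmgcs1, an early enzyme of the mevalonate pathway, went from 271, 327 and 307 to 1019.5, 845 and 809.8 CPM (log2 difference 1.56 ± 0.11, adjusted p = 2.9e-07). Sc5d and Cyp51 rose by 1.65 and 1.57. The count of 8 became 4 without ESC replicate 1, 5 without EpiLC replicate 1 and 10 without ESC replicate 3. The sterol response string TCACNCCAC was in 1 of 16 promoters (6.25%) against 1.51% of tested ones, that of Hmgcs1.
Hmgcs1: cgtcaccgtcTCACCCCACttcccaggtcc
The window is chr13:119690204-119690233 (plus strand), with the match at -137.

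Of 18 tested integrated stress response genes of 19 listed, 4 fell and none rose (22.2% against 24.5% of all genes). Asns, asparagine synthetase, went from 720.2, 714 and 801 to 133, 127 and 164 CPM (log2 difference -2.41 ± 0.11, adjusted p = 8.32e-09), Chac1 from 107, 126 and 209.7 to 32.5, 35.3 and 46.5 CPM (-1.91 ± 0.23) and Cth from 123, 129 and 160.2 to 53.3, 48.6 and 61.6 CPM (-1.33 ± 0.13). Atf4, their activator, was at -0.12 ± 0.15 and Ddit3 at -0.36 ± 0.27, neither called. Chac1, Trib3 and Ddit3 were highest in ESC replicate 3, and Trib3 lost its call without it. Of 18 lysosomal genes and regulators tested, 4 were lower and none higher (22.2%). Tfeb fell from 28.3, 30 and 20.1 to 2.34, 2.34 and 2.96 CPM (-3.32 ± 0.34), while Tfe3, its paralog and an exit regulator, was at 0.62 ± 0.10. Ctsa and Ctsb fell by 1.59 and 1.24.

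None of 33 genes of the DNA replication machinery was called, and the lowest value was -0.53, for Cdc45 (median -0.18). At an adjusted p under 0.05 alone, 1 was higher and 13 lower. Pcna was at 219, 266 and 236 CPM in ESCs and 235, 212 and 201 CPM in EpiLCs (-0.15 ± 0.11) and Mcm2 at -0.18 ± 0.099. Of 22 cell cycle genes, 3 were higher and 2 lower, close to the 24.5% of all genes that were called. Among D-type cyclins, Ccnd2 rose from 4.75, 3.56 and 0.573 to 18.96, 20.8 and 20.1 CPM (2.96 ± 0.44, and 2.27 ± 0.26 without ESC replicate 3), Ccnd3 fell (-1.32 ± 0.16), and Ccnd1 was at 0.97 ± 0.11, just under the limit. Cdkn1c, a kinase inhibitor, rose at low counts (2.71 ± 0.42) and E2f1 fell (-1.25 ± 0.17). In the Myc list 2 of 16 were called, Myc and Mycn. Myc went from 34.5, 42.4 and 18.9 to 376, 288 and 344 CPM (log2 difference 3.40 ± 0.21, adjusted p = 7.33e-08) and Mycn from 161, 176 and 144 to 385, 361 and 396 CPM (1.25 ± 0.10). Their ribosome biogenesis targets Ncl (0.26), Npm1 (0.31) and Nop56 (0.23) were not called.

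In the Bcl2 family of survival and death genes 4 of 13 tested were higher and none lower (30.8% against 24.5% of all genes, median 0.34). Bcl2, the founding survival gene, went from 2.81, 2.63 and 3.44 to 52.99, 54.02 and 41.8 CPM (log2 difference 4.06 ± 0.27, adjusted p = 1.59e-07). The pro-apoptotic genes Bcl2l11, also called Bim, and Pmaip1, also called Noxa, went from 54.4, 55.5 and 60.2 to 175, 175 and 177 CPM (1.63 ± 0.10) and from 166, 148 and 117 to 605, 573 and 605 CPM (2.05 ± 0.12). Groups were far apart for all 3. Bok was the other gene called (1.07 ± 0.27), and not without ESC replicate 1 or EpiLC replicate 2. By adjusted p alone 6 of the family were higher and 4 lower. Among 13 p53 targets 2 were higher and 1 lower, close to the share over all genes. Cdkn1a was at -0.46 ± 0.16 and Mdm2 at 0.40 ± 0.12, not called. Without ESC replicate 3, 4 were higher. Of 11 chaperones tested, none was higher and 2 were lower, the small heat shock genes Hspb1 (-2.01 ± 0.20) and Hspb8 (-1.62 ± 0.24), and Hspa5 was at 0.31.

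Markers of other cell types were examined in the same libraries. Primitive streak markers gave 5 higher of 5 tested, with 7 of 12 under the filter, and 4 of the 5 had passed it through EpiLCs alone, so this count supports nothing. Gsc, under the filter, had 25 ESC and 6 EpiLC reads. Their summed level was 27.2 to 34.3 CPM in ESCs and 108 to 190 CPM in EpiLCs, and Fgf8, given above, had the largest rise among them. Eomes went from 23.1, 25.5 and 16.04 to 73.3, 30.9 and 40.2 CPM and Mixl1 from 1.94, 2.25 and 2.58 to 5.2, 5.38 and 3.62 CPM. Eomes lost its call without ESC replicate 3 or EpiLC replicate 1, and Mixl1 without ESC replicate 1, EpiLC replicate 1 or EpiLC replicate 2. Cer1 and Mesp1 had 2 and 0 reads in all. The neuroectoderm sum was 85.7 to 161 CPM in ESCs and 427 to 510 in EpiLCs, with 3 higher and 1 lower of 5 tested. Nes, an intermediate filament gene that had most of the EpiLC sum, went from 24.2, 27.4 and 73.9 to 458, 366 and 351 CPM (3.48 ± 0.28). Pax6 went from 0.648, 0.75 and 0.86 to 14.03, 21.98 and 23.4 CPM (4.50 ± 0.49), and Sox21 fell (-3.92 ± 0.40). Sox1, the other gene called higher, lost its call without ESC replicate 1 or EpiLC replicate 2. The primitive endoderm sum was 47.9 to 84 CPM and 564 to 636 CPM, with 2 higher and 1 lower of 5 tested and 6 of 11 under the filter. Lrp2, which had most of the EpiLC sum, went from 38.9, 29.6 and 61.3 to 610.4, 532 and 567 CPM (3.82 ± 0.18). Gata6, a defining factor of that lineage, had 29 ESC and 6 EpiLC reads, Dab2 rose (4.26 ± 0.39), Sox17 fell (-1.90 ± 0.48), and Gata4 and Pdgfra were not called. Trophoblast markers summed to 56.4 to 82.3 CPM in ESCs and 23.6 to 28.5 in EpiLCs, with Tfap2c falling from 40.6, 45.9 and 44.98 to 4.68, 5.38 and 2.96 CPM (-3.29 ± 0.25) and Cdx2 at 6 reads in each group. Of 10 genes of the transient totipotent-like state only Zscan4d (0.94 ± 0.26, not called) and Usp17lc (1.47 ± 0.49, called only with all libraries or without ESC replicate 3 or EpiLC replicate 2) were tested, and the list's sum was 11.5 to 15.6 and 20 to 21.2 CPM. The fibroblast sum was 15.7 to 18 and 39.1 to 48.1 CPM, with Col1a1 at 12 and 9 reads and Postn at 0, and with Col6a2, Fbn1 and Twist1 higher and Pdgfrb lower of 4 tested. Blood and endothelial markers summed to 7.43 to 16.5 and 8.01 to 11.6 CPM, and the 1 tested, Runx1, was not called. The part of any such cells in the results above was not tested.

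The largest changes lay outside the lists as well as in them. Where the mean reached 10 CPM, Itgb8, an integrin chain that activates TGF-beta, had no ESC read and 312 EpiLC reads, at least 121-fold higher. Fndc3c1 had 2 and 570 reads, a ratio of 333-fold per read sampled (95% interval 91.7 to 2756, counting error only). Sema3e, a repulsive guidance ligand, went from 2.59, 1.31 and 0.573 to 189, 190.1 and 225 CPM (7.11 ± 0.41). Pde4b, a cAMP phosphodiesterase, went from 0.216, 0.375 and 0.573 to 68.1, 65.01 and 75.8 CPM (7.18 ± 0.46), and Trim67 from 1.08, 1.69 and 3.15 to 215, 185 and 189 CPM (6.74 ± 0.34). Mymx, which encodes the myoblast fusion peptide Myomixer, had 790 ESC reads and none in EpiLCs, at least 225-fold lower, and Spic, an Ets factor, 401 and none, at least 114-fold lower. Lrrc31 had 616 and 1 reads and Phf11d 538 and 1. Elobl fell from 80.7, 67.7 and 66.2 to 0.52, 0.234 and 0.659 CPM (-6.96 ± 0.49). Among called genes, the largest gains in CPM after Klf6 and Ccn1 included the protocadherin Fat1, from 526, 434 and 647 to 1954, 1651 and 1798 CPM (1.77 ± 0.13), the gap junction gene Gja1, from 110.1, 101 and 77.6 to 1143, 1055 and 1088 CPM (3.52 ± 0.12), and the X-linked helicase Ddx3x, from 1043, 1209.9 and 989 to 2261, 2196 and 2262 CPM (1.06 ± 0.099), which lost its call without ESC replicate 3. The largest losses in CPM among called genes were mt-Nd6, from 2512, 3307 and 4403 to 1144, 1199 and 1216 CPM (-1.48 ± 0.16), and Rpph1, the RNase P RNA, from 2135, 2150.1 and 2829 to 1283, 1188 and 1000.2 CPM (-1.03 ± 0.13), both highest in ESC replicate 3. Txnip, a glucose-responsive arrestin, went from 1580.3, 1658 and 1058 to 523, 545 and 529 CPM (-1.40 ± 0.15). Rpph1 lost its call without ESC replicate 3 or EpiLC replicate 3.

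Families defined by symbol stem, of at least 15 tested genes, differed widely in the share that moved. The Platr transcripts, long non-coding RNAs named for their pluripotency-associated expression, led, with 12 of 16 lower and 1 higher (81.2% called against 24.5% of all genes). The name came from their pattern in ESCs, and 6 of the 16 passed the filter in ESCs alone, so the direction is not independent. Platr3 went from 56.8, 65.4 and 61.3 to 1.82, 3.51 and 3.95 CPM (-4.33 ± 0.30), Platr22 rose (1.95 ± 0.22), and Platr10 was at -0.13 ± 0.13. The Col stem, mostly collagens, gave 7 higher and 2 lower of 15, the Arhgef stem of guanine nucleotide exchange factors 8 and 2 of 21, the semaphorin stem Sema 5 and 3 of 15 and the dual-specificity phosphatase stem Dusp 6 and 3 of 19. The Mapk stem gave 5 and 0 of 16, the 5 being the kinases Mapk4, Mapk11, Mapk12 and Mapk13 and the scaffold Mapk8ip1. Solute carriers gave 34 higher and 37 lower of 206. Of 358 Zfp genes, mostly zinc finger proteins, 24 were higher and 66 lower (25.1%, median -0.27). In contrast none of 61 Snord, 27 Snora, 47 Mrpl, 27 Polr, 22 Taf or 15 Ints genes was called. By adjusted p alone, 4 Snord, 3 Snora, 17 Mrpl, 4 Polr, 8 Taf and 5 Ints genes passed. Of 49 genes of the Rpl stem, Rpl10l and Rpl39l were lower. Of 48 of the Rps stem, the 2 called, both higher, were Rps6ka3 and Rps6ka6, which encode S6 kinases and no ribosomal protein. By gene type, 37 lincRNAs were higher and 83 lower of 296 (40.5%), processed pseudogenes gave 13 and 46 of 177, and antisense RNAs 26 and 51 of 232. Of the lincRNAs, 46 passed the filter in ESCs alone and 21 in EpiLCs alone. The like counts were 35 and 11 for the pseudogenes and 38 and 13 for the antisense RNAs. Such genes had to differ, so these 3 shares are set in part by the filter. Among 205 snoRNAs, 4 were higher and 1 lower (2.44%). By chromosome, the X gave 93 higher and 42 lower of 444 (30.4%, median 0.23).

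Some called genes lay in runs along the chromosome, unbroken by a tested gene that was not called in that direction. The longest, on chromosome 2 at chr2:175061549-178078476, held 19 lower genes, of which Zfp970 (-1.90 ± 0.22), Zfp971 (-2.12 ± 0.23) and Zfp931 (-2.61 ± 0.26) are zinc finger genes and 16 are predicted Gm genes. On chromosome 4, 18 genes fell at chr4:144972622-146470292. There Zfp990 went from 388, 387 and 259.9 to 115, 168 and 164 CPM (-1.21 ± 0.17) and Zfp600 fell by 2.15. Further runs of lower genes were 11 on chromosome 7 with Zfp977, Zfp976, Zfp975 and Zfp936, and 9 on chromosome 13 with Zfp808. Zinc finger clusters are known to hold close copies, and reads were kept only where they aligned uniquely, so neighbouring members can share or lose reads and are not independent. A 9-gene run in the extended class I region of chromosome 17 held Zfp57, the zinc finger protein that guards imprinted methylation, at 662, 783 and 589.9 CPM in ESCs and 79.5, 80.7 and 82.7 CPM in EpiLCs (log2 difference -3.06 ± 0.12, adjusted p = 2.25e-09). Gabbr1 and H2-M5 in it fell by 2.04 and 6.25. Another lower run of 10 genes on chromosome 7 held Idh2, from 56.3, 53.4 and 43.8 to 11.2, 10.5 and 8.89 CPM (-2.31 ± 0.19), and Sema4b. Of rising runs, 15 genes at chr3:125865271-127499001, with Camk2d (2.75 ± 0.17) and Ank2 (2.01 ± 0.13), ended shortly before the miR-302/367 run of 5. Of those 15 genes, 12 are unproven models that lie inside Camk2d or Ank2, so their reads may come from the same transcripts.

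**Figure D5:**
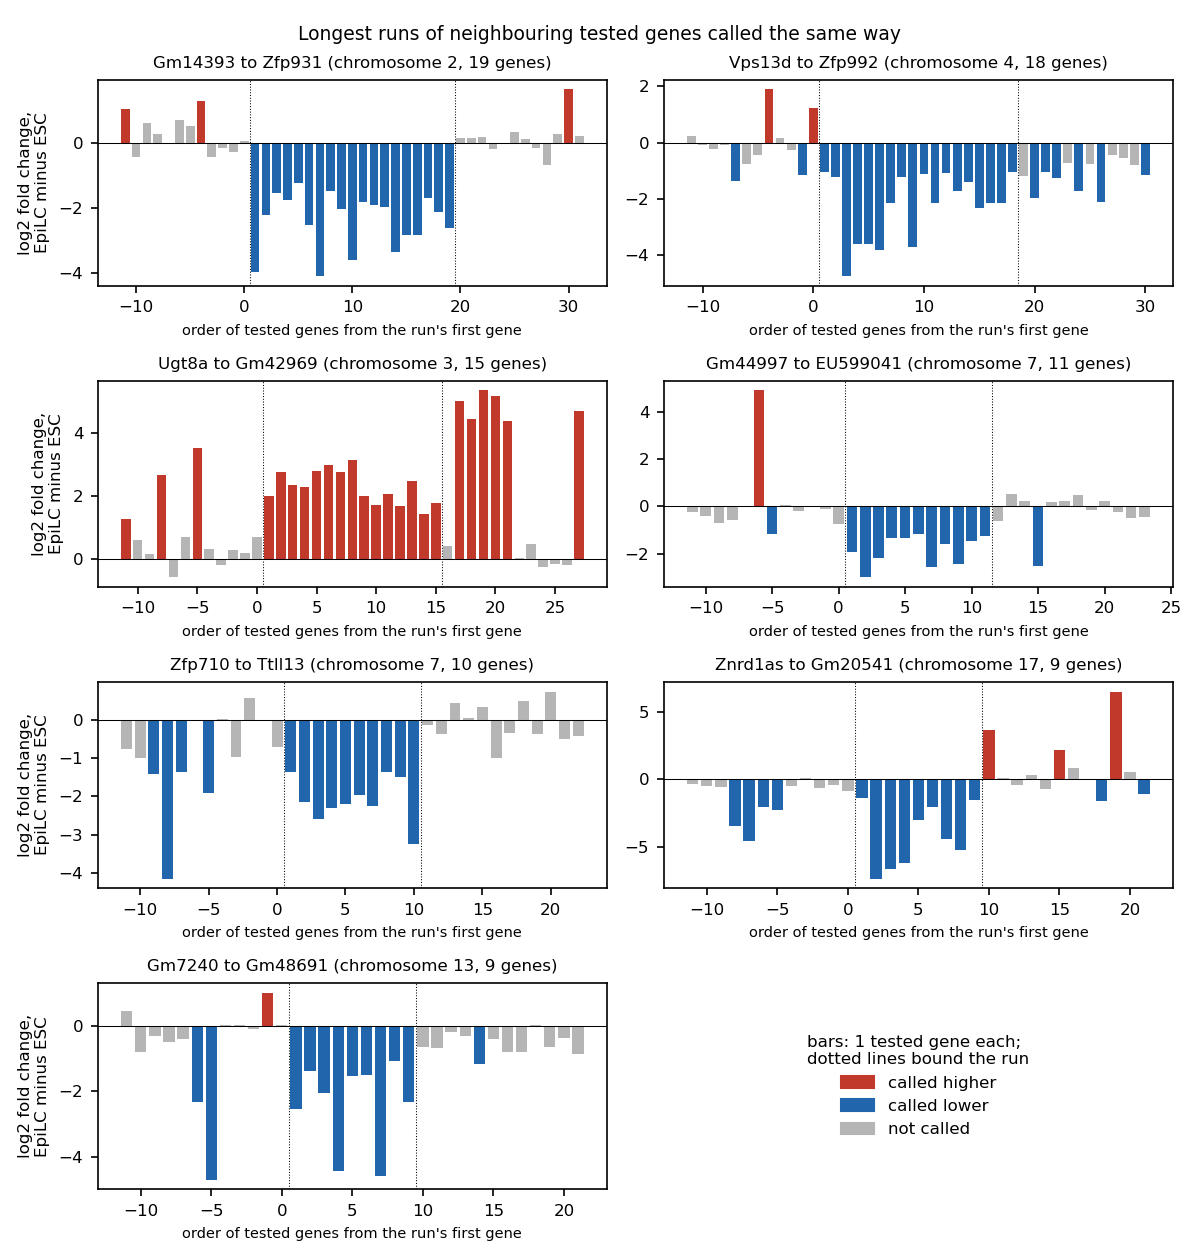
Runs of at least 9 consecutive tested genes called in 1 direction, 1 panel a run, with the log2 difference (EpiLC minus ESC) of each tested gene as a bar in chromosome order and dotted lines at the run's ends. The 19-gene run of chromosome 2 and the 18-gene run of chromosome 4 lie wholly below 0, and the 15-gene run of chromosome 3 above it.

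Total RNA moved in the same direction as nascent RNA for most called genes. Of the 3441, 3365 had the same sign in total RNA and 2724 were called there in the same direction. The 4sU and total libraries were split from the same labelled RNA, so they share cells. The difference between assays was called for 98 of the 3441 (2.85%) and for 1.53% of all genes tested. That fit had no term for the culture, the count was 214 with culture as a block and 43 to 247 when 1 of the 12 libraries was left out, and it was 247 without ESC total replicate 3. Besides Socs3, Tagln and Myl9, the 98 included Mycn, which rose in 4sU RNA (1.25) but was at 0.14 in total RNA, and Skil (2.57 and 1.45). Xist was at -1.22 in 4sU RNA and 2.15 in total RNA. Bcl2 was at 5.79 in total RNA. With the block the difference was called for all these genes and for Pou5f1. In the 12 fits that left out 1 library it was called in all 12 for Socs3, Tagln and Myl9, in 11 for Pou5f1 and Skil, in 10 for Mycn, in 4 for Xist and in 1 for Bcl2.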

How the data were processed

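Gene counts were deposited by the authors as raw whole-number reads per gene, 1 column a library, with no normalization. Per the labels and the study's methods, single-end 50 bp reads from KAPA stranded libraries were trimmed with cutadapt 1.14, aligned to mm10 with STAR 2.5.3a keeping unique alignments, and counted over exons by strand with featureCounts 1.5.3 on GENCODE M14 basic gene models without rRNA, with ERCC entries added. The total RNA, not the 4sU RNA, is stated to have been depleted of rRNA. The 92 spike-in entries held 0 reads and were left out.

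The 6 4sU libraries were scaled by TMM (edgeR 4.0.16) and tested with limma 3.58.1 (voom, empirical Bayes) in R 4.3.3, ESC against EpiLC without covariates, 3 libraries a group, with Benjamini-Hochberg adjustment over the 14026 genes that reached 3 CPM in 3 or more libraries. A call needs an adjusted p under 0.05 and an absolute log2 difference over 1. Calls on the fitted difference use voom log2 CPM, and printed CPM are counts divided by TMM-scaled totals, except the marker sums, which use library totals. The test of the difference between 4sU and total RNA was an interaction term in a limma fit of all 12 libraries. Symbols were matched for 14005 of the 14026 genes, and 9660 tested genes had a RefSeq promoter. The code was tested on simulated counts. DESeq2 1.42.0 and edgeR's quasi-likelihood test were alternatives, with other scalings, filters, a replicate block and each library left out. Replicate numbers were not treated as pairs, since the labels do not say that they pair the samples. Deviations of same-numbered ESC and EpiLC libraries correlated at -0.077, -0.03 and -0.05. No shared effect was visible, but these values cannot tell whether same-numbered cultures were handled together. Chi-square per degree of freedom between replicates was 4.46 to 9.79 among ESC libraries and 1.37 to 2.05 among EpiLC libraries. No library was therefore a copy of another, and the spread was larger among ESC libraries. These values do not tell whether the replicates came from separate cultures. Fold bounds for genes without reads in a group use 3 reads over the group, and intervals cover counting error only, since the reads carry no molecular identifiers.

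Genes were named by rule: the leading genes of each list, each list's largest called rise and fall, the 12 largest rises and falls whose mean reached 10 CPM and whose groups did not overlap, the 8 largest gains and losses in CPM, and members of families described. Other genes named were chosen after their values were seen. The members and lists were chosen with earlier results of these data known. Some genes covered by this rule are not reported here.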

Additional observations from a re-analysis of the deposited data

How the results depend on the processing

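Among the 622 listed or named genes tested, no called value reversed its direction under any alternative. Uncalled ones could, as Spry4, Lefty2 and Atf4 did without ESC replicate 3. Counts of genes called higher and lower, 1740 and 1701, moved most with the filter and the fold rule. Without a filter they were 2910 and 2857, and when 10 CPM in 3 libraries was required 1078 and 1054, since fewer or more genes were tested. By adjusted p alone they were 3674 and 3596, and by limma's treat test, which requires the fold limit itself to be exceeded, 941 and 787. Over listed genes, 165 higher and 88 lower became 257 and 149 by adjusted p alone and 103 and 58 by treat, and for Zfp genes 24 and 66 became 67 and 158, and 12 and 29. The other tools and scalings gave 1645 to 1767 higher and 1660 to 1821 lower. Leaving out single libraries gave 1704 to 1763 higher and 1649 to 1726 lower. The fit with a replicate block gave 1703 and 1703, with 3376 of the 3441 calls in the same direction, although the numbers do not pair the samples. The count of called genes whose change differed between 4sU and total RNA, 98, was the least stable, at 214 with a culture replicate block and 43 to 247 when single libraries were left out. It was 247 without ESC total replicate 3, 47 and 54 without ESC total replicates 1 and 2, 43, 43 and 50 without EpiLC 4sU replicates 1, 2 and 3, and 54, 49 and 53 without EpiLC total replicates 1, 2 and 3. Of 622 listed or named genes tested, 282 were called, 252 of them in every fit that left out a library, and 35 uncalled genes were called in at least 1 such fit. Depth, 3097693 to 5385644 reads a library, limits genes of few reads, and 3 libraries a group leave the spread of each gene poorly known, as ESC replicate 3 shows for the genes named beside their results. Counts were not corrected for the 4sU label taken up per uridine.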

Other observations

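Transcripts of the mitochondrial genome, chosen for description after their values were seen, had log2 differences below 0 at every tested gene. Of 17 tested on chromosome M, none was higher and 4 were called lower. The 4 were mt-Nd6, which is encoded on the light strand, and the transfer RNA genes mt-Tl1 (-1.34 ± 0.14), mt-Tn (-1.77 ± 0.45) and mt-Tp (-1.70 ± 0.29). The abundant heavy-strand mRNAs moved less. The gene mt-Co1 was at 10871, 14482 and 12904 CPM in ESCs and 7628, 7239.8 and 7549 CPM in EpiLCs (log2 difference -0.76 ± 0.11, adjusted p = 8.43e-05), and mt-Nd1 was at 19881, 26333 and 24496 CPM in ESCs and 15524, 15541 and 15572 CPM in EpiLCs (log2 difference -0.59 ± 0.11, adjusted p = 0.000619), both under the fold limit with groups that did not overlap. Differences of this kind are relative to the other reads of each library, and the part of RNA recovery in them was not tested.

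Rn7sk, the RNA that holds the elongation factor P-TEFb inactive, was at 2887, 3357 and 4054 CPM in ESCs and 2129, 2125 and 1813 CPM in EpiLCs (log2 difference -0.75 ± 0.12, adjusted p = 0.000255), also under the fold limit and also named after its value was seen.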
